A study of Rattus norvegicus with 52 samples.

Results

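The genes described here are 4 receptors of fibroblast growth factors (Fgfr1, Fgfr2, Fgfr3 and Fgfr4) and 4 of their ligands (Fgf1, Fgf2, Fgf7 and Fgf10), taken by symbol as 8 of the 17356 genes counted in rat mammary epithelial cells. They were followed across cell populations, the Cdkn1b genotype, age, 17β-estradiol (E2) treatment and rat strain in 48 RNA libraries. Fgfr1 was counted in every library and Fgfr2 in every library but 1 at 10 reads or more, whereas Fgf10 reached 10 reads in only 2 libraries and was never tested.

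Fibroblast growth factors are secreted proteins that bind heparan sulfate and activate receptor tyrosine kinases, which signal through adaptor proteins to the Ras, MAP kinase and PI3 kinase pathways. Alternative splicing of Fgfr1, Fgfr2 and Fgfr3 gives a form found in epithelium and a form found in mesenchyme, and counts per gene do not separate the forms. In the mammary gland, Fgf7 and Fgf10 are known as products of the stroma that act on the epithelial form of Fgfr2, and signalling through Fgfr2 is known to be needed for the mammary bud and for branching of the ducts.

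Cdkn1b encodes p27, an inhibitor of cyclin-dependent kinases. The Cdkn1b-/- rats carried whole-body CRISPR-Cas9 deletions in the first coding exon, made in Sprague-Dawley zygotes and crossed onto the ACI background, and Cdkn1b+/+ rats of these crosses were the controls. According to the study's methods, glands for cell sorting came from crosses of both an early and a late backcross generation. The labels do not say which deletion or which generation a library carries. The share of Sprague-Dawley background may thus differ between libraries and is not known. Virgin Cdkn1b+/+ and Cdkn1b-/- ACI females of 9 weeks gave 2 libraries per genotype of each of basal cells (Cd24+ Cd29HIGH), mature luminal cells (Cd24+ Cd29LOW Cd49b- PNA-), and luminal progenitors (LP, Cd24+ Cd29LOW) that bound peanut agglutinin (PNA+) or carried the integrin Cd49b (Cd49b+). At 4 weeks there were 3 Cdkn1b+/+ and 2 Cdkn1b-/- libraries of basal cells and 3 and 3 of all luminal cells (Cd24+ Cd29LOW), and at 6 weeks 3 and 2 of basal and 2 and 2 of luminal cells. Both ages are labels of a cohort, and library titles carry numbers that read as the ages of single animals. At 6 weeks this number was lower for 1 Cdkn1b-/- animal than for all others, and at 4 weeks for 1 Cdkn1b+/+ animal. Genotype was therefore partly mixed with age in these cohorts, and the part of age in the genotype comparisons was not tested. In the E2 experiment, ACI and BN females without a Cdkn1b deletion received implants at 9 weeks of age, empty in controls, that released E2 over 3 weeks. Basal cells and luminal cells were each measured in 2 ACI libraries per treatment and in 1 BN library per treatment, and the titles of the BN libraries carry 2 animal codes each, which reads as a pool. In such bulk libraries, fewer cells of a type and less RNA per cell cannot be told apart.

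Reads counted on genes numbered 21545344 to 33859550 per library at 9 weeks, 14674040 to 23045345 at 4 weeks, 7985619 to 16390460 at 6 weeks and 13659389 to 25280421 in the E2 experiment. Levels are given as CPM, the reads of a gene scaled to the total counted on genes, and 3 reads, taken as the limit of detection, correspond to 0.0886 to 0.376 CPM. Cdkn1b itself lay at 1.59 to 4.24 CPM in the 8 Cdkn1b-/- libraries of 9 weeks and at 6.00 to 18.0 CPM in the 8 Cdkn1b+/+ libraries, but at 6 weeks the genotypes overlapped (11.1 to 30.2 against 3.13 to 46.3 CPM), and the deletions leave most of the transcript to be counted. The summed CPM of a list of basal markers was 17720 to 25158 in basal cells of 9 weeks, 265 to 2835 in LP and 227 to 385 in mature luminal cells. The LP marker list did not set LP apart from mature luminal cells (1392 to 6312 against 2159 to 9787 summed CPM), so these populations are named here by their gates. Libraries that stood apart were Cdkn1b-/- luminal 2 and Cdkn1b+/+ basal 3 of 6 weeks and both libraries of animal 1 of the E2-treated ACI rats, whose basal library had a summed CPM of 40.1 for the luminal markers and of 3434 for pericyte markers.

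The 250 bases before the RefSeq start of Fgfr2 are shown because Fgfr2 was the only member called between the genotypes. Its luminal level was also lower in the E2 than in the control libraries, without overlap, but this did not pass edgeR's test. Capitals mark matches on either strand to a GC box (GGGCGG or CCGCCC) and to a half-site of the estrogen receptor (GGTCA or TGACC).
Fgfr2, GRCr8 chr1:194280915-194281164, minus strand, 5′ to 3′: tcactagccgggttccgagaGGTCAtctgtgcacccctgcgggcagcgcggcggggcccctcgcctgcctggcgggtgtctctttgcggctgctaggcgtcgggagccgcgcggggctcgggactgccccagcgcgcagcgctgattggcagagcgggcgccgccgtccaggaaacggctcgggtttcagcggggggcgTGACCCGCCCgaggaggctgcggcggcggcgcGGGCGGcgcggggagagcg
The window had a GC content of 76.8% and 37 CG dinucleotides. GC boxes began 47 and 19 bases before the start and half-sites began 230 and 51 bases before it, and the half-site at 51 shared 1 base with the GC box at 47. A GC box was found in 30.5% and a half-site in 35.4% of the 33469 RefSeq promoter windows of this length, so that neither match is rare. No match to a TATA box (TATAAA or TTTATA), held by 12.9% of windows, or to a half-site of the progesterone receptor (AGAACA or TGTTCT), held by 17.5%, was found in the Fgfr2 window.

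First, the receptors were compared between the populations of the 9-week gland. Fgfr1 and Fgfr2 were higher in basal cells than in LP and mature luminal cells in both genotypes, and Fgf1 was the ligand with the same pattern. In Cdkn1b+/+ rats, 3 of the 7 members tested were called between basal cells and LP, 3 between basal and mature luminal cells and 1 between LP and mature luminal cells, all higher in the first population named, at an adjusted p under 0.05 in edgeR's quasi-likelihood test. Of all 12809 genes tested, 30.9%, 20.9% and 11% were called in these comparisons. In Cdkn1b-/- rats, 5 of 7 members were higher in basal cells than in LP and 5 of 7 higher than in mature luminal cells, where 36.3% and 23.7% of all genes were called.

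Fgfr1, a receptor known from many mesenchymal tissues, had 207 and 286 CPM in the Cdkn1b+/+ basal libraries. It had 80.8 and 84.2 CPM in the Cd49b+ LP, 78.5 and 81.8 CPM in the PNA+ LP, and 57.9 and 69.5 CPM in the mature luminal libraries. Each basal library exceeded all luminal ones. The fitted level in basal cells was 3.17-fold that in LP (log2 fold change 1.66 ± 0.20 SE, edgeR adjusted p = 9.3e-05) and 3.42-fold that in mature luminal cells (1.78 ± 0.25, edgeR adjusted p = 0.000422). The order was the same in Cdkn1b-/- cells, with 2.86-fold and 2.76-fold higher levels in basal cells, while LP and mature luminal cells did not pass the test in either genotype.

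Fgfr2, the main receptor for Fgf7 and Fgf10 in epithelia, followed a graded order in Cdkn1b+/+ cells. Its level was 333 and 371 CPM in basal cells, 132 to 161 CPM in the 4 LP libraries and 35.6 and 58.0 CPM in mature luminal cells, and no population overlapped its neighbour. Basal cells had 2.45-fold the level of LP (log2 fold change 1.29 ± 0.38 SE, edgeR adjusted p = 0.0202) and 6.58-fold the level of mature luminal cells (2.72 ± 0.48, edgeR adjusted p = 0.00179). LP had 2.69-fold the level of mature luminal cells (1.43 ± 0.42, edgeR adjusted p = 0.0454), a call that was lost whichever single library was left out (edgeR adjusted p from 0.0560 to 0.250). The call between basal cells and LP was lost without basal 1 (edgeR adjusted p = 0.0501) or basal 2 (0.109), and with PNA+ and Cd49b+ libraries summed both of these calls were lost (0.0877 and 0.124).

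**Figure D1:**
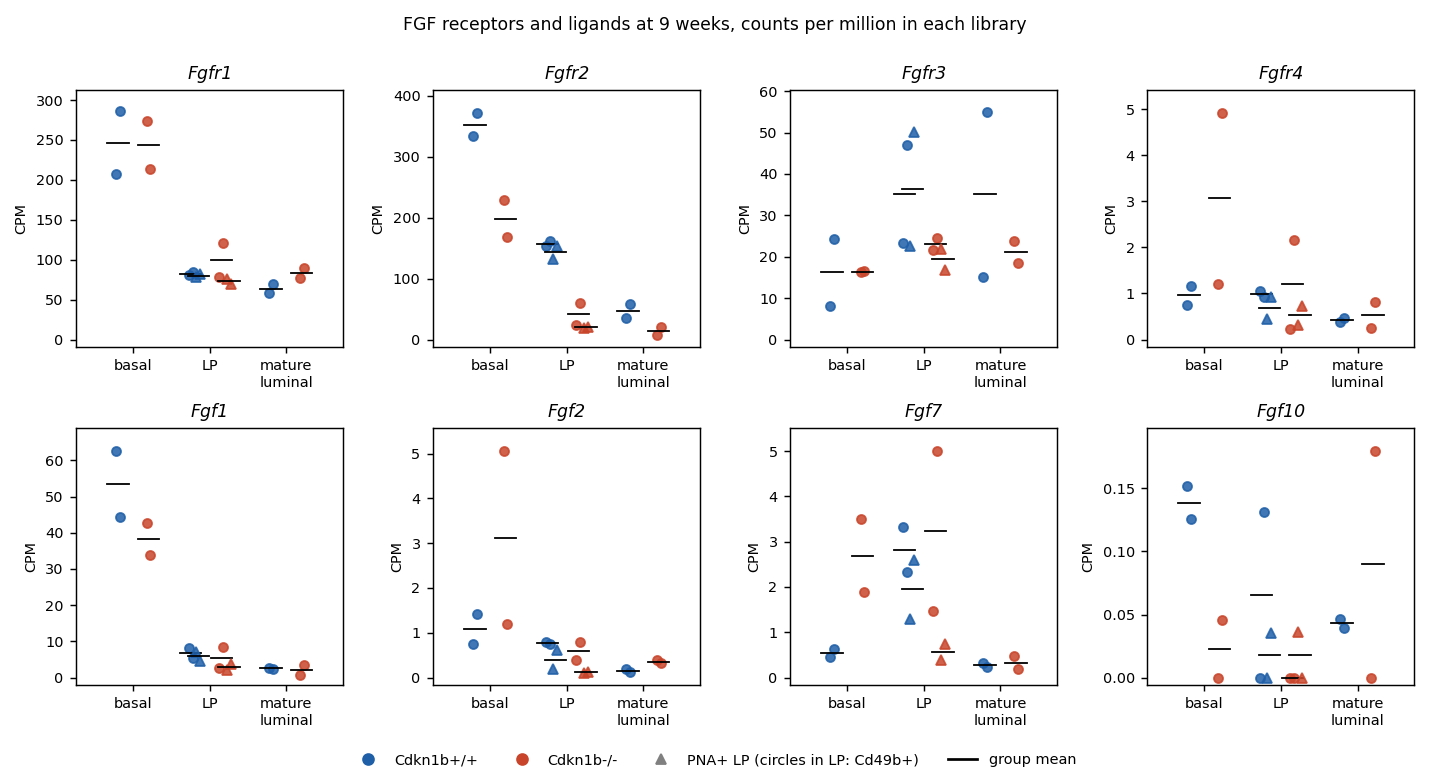
Level (CPM, y axis of each panel, linear from 0) of the 8 members in basal, LP and mature luminal cells of 9 weeks; each point is a library, blue Cdkn1b+/+ and red Cdkn1b-/-, triangles mark PNA+ and circles Cd49b+ LP libraries, and black lines are means of groups of 2 libraries. Fgfr1, Fgfr2 and Fgf1 are highest in basal cells, and the Cdkn1b-/- LP libraries of Fgfr2 (19.7 to 59.8 CPM) all lie below the Cdkn1b+/+ ones (132 to 161 CPM).

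Fgfr3, a receptor best known in cartilage, did not pass the test between populations in either genotype. Cdkn1b+/+ basal libraries had 8.22 and 24.3 CPM, LP 22.6 to 50.1 CPM and mature luminal cells 15.0 and 55.0 CPM. In all 3 populations the library numbered 2 had the higher level, and with genotype and library number as a block Fgfr3 was lower in basal cells than in LP (log2 fold change -1.19, edgeR adjusted p = 0.000605) and than in mature luminal cells (-1.23, edgeR adjusted p = 0.00127). Fgfr4, a receptor with a main role in liver, was near the limit of detection, with 0.371 to 1.17 CPM in all 8 Cdkn1b+/+ libraries.

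Among the ligands, Fgf1, which binds all 4 receptors and lacks a classical signal peptide, marked the basal population. Its level in Cdkn1b+/+ basal cells was 62.5 and 44.2 CPM, against 4.70 to 8.27 CPM in the LP and 2.65 and 2.49 CPM in the mature luminal libraries. The basal level was 8.74-fold that of LP (log2 fold change 3.13 ± 0.44 SE, edgeR adjusted p = 0.000269) and 18.3-fold that of mature luminal cells (4.19 ± 0.60, edgeR adjusted p = 0.000496). In Cdkn1b-/- cells the corresponding folds were 9.53 and 17.8. The RefSeq span of Fgf1 overlaps that of Arhgap26, and reads from overlapping genes cannot be told apart without strand, which the sources used here do not give.

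Fgf2 and Fgf7 were sparse in the 9-week epithelium and were called between populations in Cdkn1b-/- cells and not in Cdkn1b+/+ cells. For Fgf2 the genotype difference in LP minus that in basal cells was -2.27 ± 1.06 on the log2 scale (edgeR adjusted p = 0.689), so that the genotypes were not shown to differ in the step from LP to basal cells. For mature luminal cells, the comparison in which Fgf7 was called, this difference was not tested. Fgf2, another ligand without a signal peptide, had 5.06 and 1.196 CPM in Cdkn1b-/- basal cells, 0.108 to 0.784 CPM in LP and 0.403 and 0.314 CPM in mature luminal cells. Its basal level was 9.40-fold that of LP (log2 fold change 3.23 ± 0.71 SE, edgeR adjusted p = 0.00352), and without basal 1 the call was lost (1.82, edgeR adjusted p = 0.141). The fold over mature luminal cells was 8.05 (edgeR adjusted p = 0.0294), and this call was lost without basal 1 (0.329), mature luminal 1 (0.0906) or mature luminal 2 (0.160). Fgf2 overlaps the antisense gene Nudt6 and Fgf7 overlaps Fam227b, with the same limit as for Fgf1.

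Fgf7, the keratinocyte growth factor, had 3.50 and 1.89 CPM in the Cdkn1b-/- basal libraries and 0.484 and 0.179 CPM in the mature luminal ones, a 7.27-fold difference (log2 fold change 2.86 ± 0.93 SE, edgeR adjusted p = 0.0391) that did not pass the test without either basal library (0.179 and 0.0582) or without either mature luminal library (0.0593 and 0.219). Levels in Cdkn1b+/+ cells were 0.455 and 0.627 CPM in basal cells, 1.29 to 3.32 CPM in LP and 0.325 and 0.237 CPM in mature luminal cells. There LP exceeded mature luminal cells by a log2 fold change of 2.84 ± 0.88 (edgeR adjusted p = 0.0547), which passed with genotype and number as a block (2.83, edgeR adjusted p = 0.0348). Endothelial, pericyte and adipocyte markers were also higher in these LP than in these mature luminal libraries. Their sums were 611 to 1204 against 156 to 164 CPM for endothelium and 240 to 406 against 116 to 158 CPM for pericytes. For adipocytes they were 446 to 592 against 169 to 179 CPM. Fibroblast markers overlapped (659 to 1621 against 403 to 812 CPM), and the part of these lists in Fgf7 was not tested. Fgfr4 was 3.80-fold higher in Cdkn1b-/- basal cells than in LP (1.92 ± 0.70, edgeR adjusted p = 0.0458), from 1.21 and 4.92 CPM in basal cells and 0.236 to 2.16 CPM in LP, and without basal 2 this fell to a log2 fold change of 0.63 (edgeR adjusted p = 0.664). The call was also lost without Cd49b+ 1 (0.0953), PNA+ 1 (0.0963) or PNA+ 2 (0.0874). With the block, Fgfr4 was also higher in basal than in mature luminal Cdkn1b-/- cells (2.41, edgeR adjusted p = 0.00347). Fibroblast markers summed to 835 and 3026 CPM in the Cdkn1b+/+ and 2286 and 3221 CPM in the Cdkn1b-/- basal libraries, and their part in these sparse ligands was not tested.

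**Figure D2:**
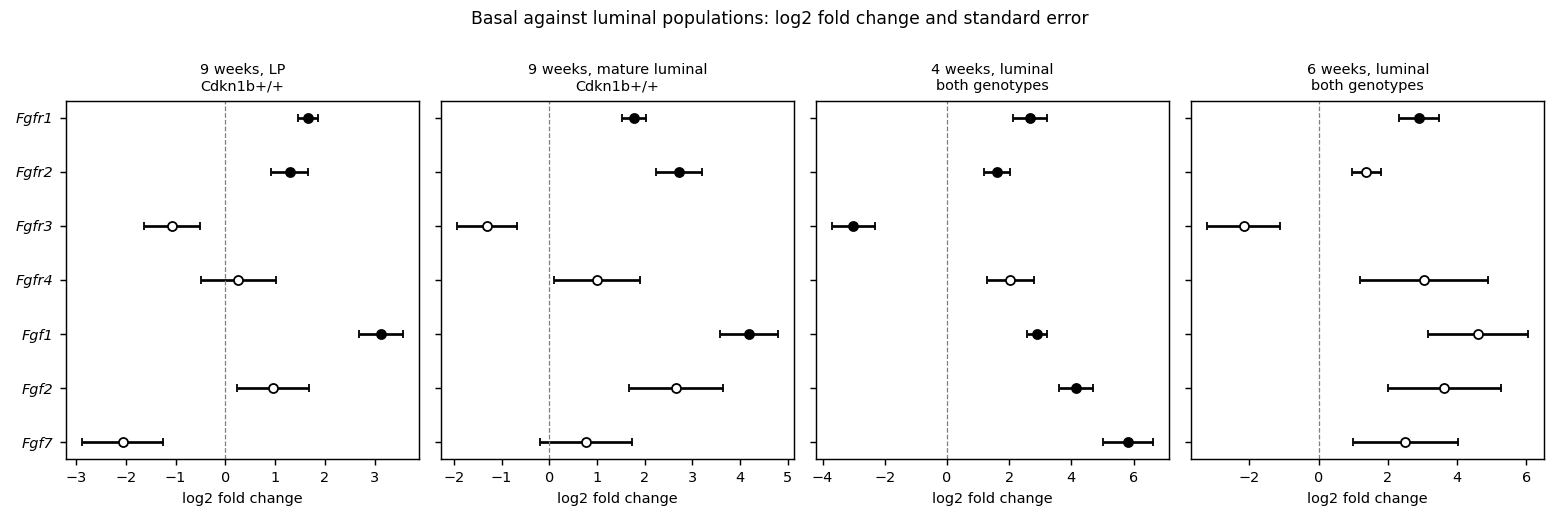
Log2 fold change of basal over luminal cells (x axis, bars are ± SE) for the 7 members tested, in Cdkn1b+/+ cells of 9 weeks against LP and against mature luminal cells, and in both genotypes together at 4 and 6 weeks; filled points passed an adjusted p of 0.05. Fgfr1 and Fgf1 lie to the right in all 4 comparisons, from 1.66 to 2.90 for Fgfr1 and from 2.90 to 4.62 for Fgf1, and Fgfr3 lies to the left in all 4.

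Second, the genotypes were compared at 9 weeks, the question the study asked of each population. Fgfr2 was lower in Cdkn1b-/- than in Cdkn1b+/+ LP, and no other member was called in any population. In LP, 1 of 7 members was called, where 3.4% of all genes were called. The basal comparison called 0 of 7 members and 0.0546% of genes, and the mature luminal one 0 of 7 and 0.133%. At an unadjusted p under 0.05 there were 2 members in each of these populations, and by DESeq2 1 member was called in LP, 1 in mature luminal and 0 in basal cells. Of all 12809 genes, 2346 in LP, 916 in mature luminal and 1164 in basal cells had an unadjusted p under 0.05. DESeq2 called 1096, 157 and 158 genes.

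In Cdkn1b+/+ LP, Fgfr2 had 153 and 161 CPM in the Cd49b+ and 132 and 153 CPM in the PNA+ libraries. In Cdkn1b-/- LP it had 23.7 and 59.8 CPM in the Cd49b+ and 19.7 and 20.5 CPM in the PNA+ libraries. The genotypes did not overlap, with means of 150.0 ± 12.2 against 30.9 ± 19.3 CPM (SD, n = 4). The fitted level fell by 2.04 on the log2 scale (± 0.33 SE, edgeR adjusted p = 0.00661), a 4.11-fold lower level in Cdkn1b-/- LP. The call held without any single library (edgeR adjusted p from 0.00127 to 0.0298) and with the library number as a random block (limma, adjusted p = 0.0420). It was lost when the PNA+ and Cd49b+ libraries of each number, which resembled each other, were summed to 2 per genotype (log2 fold change -2.05, edgeR adjusted p = 0.331).

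Within each gate the difference had the same sign but did not pass the test. The log2 fold change of Fgfr2 was -2.52 ± 0.37 in PNA+ cells (edgeR adjusted p = 0.142, 0 of 7 members called, background 0.00853%) and -1.77 ± 0.36 in Cd49b+ cells (edgeR adjusted p = 0.444, 0 of 7 members called, background 0%), where DESeq2 called Fgfr2 in each. Over all genes, edgeR called 1 in the PNA+ and 0 in the Cd49b+ comparison. There were 1413 and 630 genes at an unadjusted p under 0.05, and DESeq2 called 382 and 104. Between PNA+ and Cd49b+ cells themselves 0 of 7 members and 0% of genes were called by edgeR, with 419 genes and 2 members at an unadjusted p under 0.05 and 40 genes by DESeq2. Those 2 members were Fgf2 and Fgf7, both with lower levels in PNA+ cells in the fit.

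Mature luminal Fgfr2 had 35.6 and 58.0 CPM in Cdkn1b+/+ and 6.69 and 20.7 CPM in Cdkn1b-/- libraries, again without overlap, with a log2 fold change of -1.69 ± 0.47 (edgeR adjusted p = 0.289). Of 14 alternatives, 1 called Fgfr2 here. In basal cells it had 333 and 371 CPM against 229 and 168 CPM, a log2 fold change of -0.58 ± 0.45 (edgeR adjusted p = 0.753). Whether the genotype difference itself varied between populations was tested directly. The log2 fold change of Fgfr2 in LP minus that in basal cells was -1.46 ± 0.56 (edgeR adjusted p = 0.639), and in LP minus mature luminal cells it was -0.35 ± 0.56 (edgeR adjusted p = 1.00), so that a difference between populations was not shown. In both tests edgeR called 0 of 7 members and 0% of genes, with 926 and 224 genes at an unadjusted p under 0.05 and 74 and 0 called by DESeq2.

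**Figure D3:**
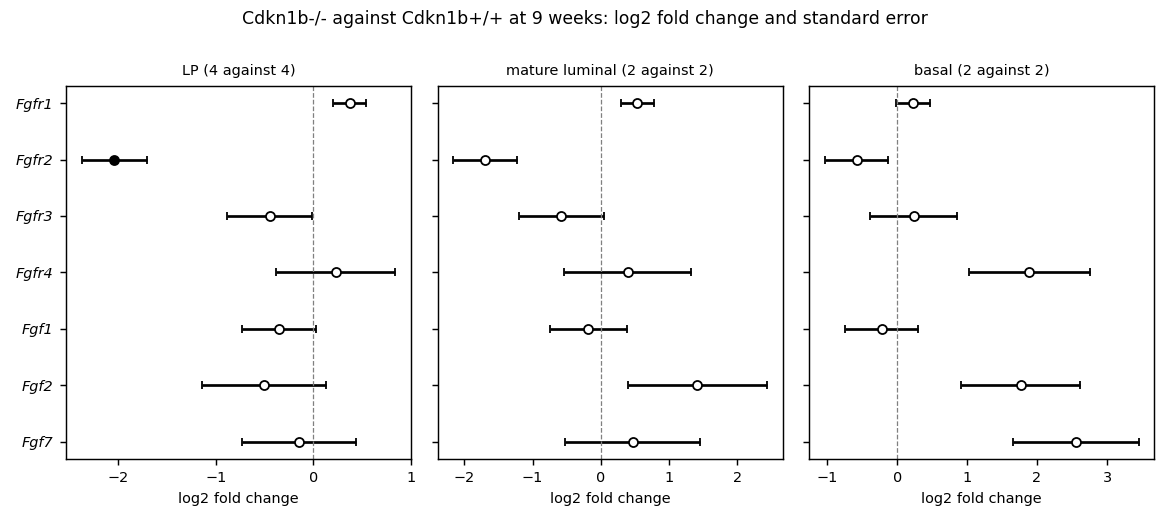
Log2 fold change of Cdkn1b-/- over Cdkn1b+/+ cells (x axis, bars are ± SE) for the 7 members tested in LP, mature luminal and basal cells of 9 weeks; filled points passed an adjusted p of 0.05. Only Fgfr2 in LP (-2.04) is filled, and its values in mature luminal (-1.69) and basal cells (-0.58) lie on the same side of 0.

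Marker lists of other states and cell types moved with the genotype in the same LP libraries. The summed CPM of 6 milk genes, all counted in every LP library, was 20639 to 62782 in Cdkn1b+/+ and 103029 to 183983 in Cdkn1b-/- LP. The summed CPM of hormone-sensing luminal markers, of which 5 of 6 were counted, was 325 to 463 in Cdkn1b+/+ and 145 to 201 in Cdkn1b-/- LP. Stromal markers were lower in the Cdkn1b-/- PNA+ libraries, with summed CPM of 180 to 190 against 659 to 1621 for fibroblasts, 80.5 to 87.3 against 240 to 406 for pericytes, 218 to 383 against 611 to 1104 for endothelium and 205 in both against 446 to 475 for adipocytes. Over all LP libraries these lists overlapped between genotypes. The feedback and target genes of FGF signalling summed to 12193 to 13250 CPM in Cdkn1b+/+ and to 6781 to 9722 CPM in Cdkn1b-/- LP, without overlap. The sums did not overlap in mature luminal cells (13028 and 13121 against 7184 and 9219 CPM) or basal cells (12873 and 13685 against 10724 and 11508 CPM) either. This list includes Fos, Egr1, Myc and Ccnd1, and none of its tested genes was called between genotypes in LP. The part of these lists in the Fgfr2 difference was not tested. Basal markers, with 8 of the 9 listed present in the files, summed to 402 to 1052 in Cdkn1b+/+ LP, to 265 to 476 in 3 Cdkn1b-/- LP libraries and to 2835 in Cd49b+ LP 2, which also had the highest Fgfr2 level of its group. Without that library the Fgfr2 difference was larger, with a log2 fold change of -2.41 (edgeR adjusted p = 0.00127).

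No other receptor was called between genotypes at 9 weeks. Fgfr1 had 78.5 to 84.2 CPM in Cdkn1b+/+ LP and 70.1 to 121 CPM in Cdkn1b-/- LP, with a log2 fold change of 0.37 ± 0.17 (edgeR adjusted p = 0.264). Fgfr3 had 22.6 to 50.1 CPM against 16.9 to 24.6 CPM, with a log2 fold change of -0.45 ± 0.44 (edgeR adjusted p = 0.635). The ligands in LP had log2 fold changes between -0.51 for Fgf2 and -0.15 for Fgf7, each smaller than its SE. In basal cells Fgf7 had 0.455 and 0.627 CPM in Cdkn1b+/+ and 3.50 and 1.89 CPM in Cdkn1b-/- libraries, without overlap (2.56 ± 0.90, edgeR adjusted p = 0.407). Basal Fgfr4 did not overlap either, with 0.758 and 1.17 CPM in Cdkn1b+/+ and 1.21 and 4.92 CPM in Cdkn1b-/- libraries (1.89 ± 0.87, edgeR adjusted p = 0.545). Its nearest libraries, at 1.17 and 1.21 CPM, were almost level. Groups of 2 libraries can lie apart by chance, here and wherever non-overlap of such small groups is given. The share of all genes that lay apart in this way is not given here. Pericyte markers summed to 70.7 and 131 CPM in these Cdkn1b+/+ and to 216 and 259 CPM in these Cdkn1b-/- basal libraries. Adipocyte and myeloid markers were also higher in Cdkn1b-/- without overlap, while fibroblast and endothelial markers overlapped. The part of these lists in basal Fgf7 and Fgfr4 was not tested.

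Between LP and mature luminal cells of Cdkn1b-/- rats, 0 of 7 members were called and 0% of all genes, with 2254 genes and 2 members at an unadjusted p under 0.05 and 605 genes called by DESeq2. Fgfr2 had 19.7 to 59.8 CPM in Cdkn1b-/- LP and 6.69 and 20.7 CPM in Cdkn1b-/- mature luminal cells, and these groups overlapped, unlike those of Cdkn1b+/+ rats.

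Next, the younger glands were examined. At 4 weeks most of the members tested were called between basal and luminal cells, and no member was called between genotypes. Of the 7 members tested, 5 were higher and 1 lower in basal cells, where 35.1% of all genes were called. Fgfr1 had 50.4, 168 and 236 CPM in Cdkn1b+/+ basal and 24.6, 39.7 and 36.0 CPM in Cdkn1b+/+ luminal libraries, and in Cdkn1b-/- rats 24.5 and 196 CPM against 3.48, 8.46 and 26.3 CPM. Over both genotypes its basal level was 6.36-fold the luminal one (log2 fold change 2.67 ± 0.54 SE, edgeR adjusted p = 0.00179), although Cdkn1b-/- basal 1 overlapped the luminal range.

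Fgfr2 at 4 weeks had 105 to 488 CPM in the 5 basal libraries and 32.6 to 176 CPM in the 6 luminal ones, 3.07-fold higher in basal cells (log2 fold change 1.62 ± 0.42 SE, edgeR adjusted p = 0.00835). The call was lost without Cdkn1b-/- basal 2 (1.06, edgeR adjusted p = 0.0563). Fgfr3 showed the opposite direction, with 0.635 to 11.99 CPM in basal and 9.53 to 91.6 CPM in luminal cells, 8.04-fold lower in basal cells (-3.01 ± 0.68, edgeR adjusted p = 0.00383). Only Cdkn1b-/- luminal 1, at 9.53 CPM, overlapped the basal libraries.

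Ligands at 4 weeks were basal. Fgf1 had 21.4 to 35.2 CPM in basal and 1.59 to 5.04 CPM in luminal libraries, without overlap and 7.47-fold higher in basal cells (log2 fold change 2.90 ± 0.32 SE, edgeR adjusted p = 1.33e-05). Fgf2 had 1.89 to 4.33 CPM in basal and 0.0657 to 0.422 CPM in luminal libraries (4.15 ± 0.56, edgeR adjusted p = 7.32e-05). Fgf7 had 0.777 to 2.94 CPM in every basal library and at most 0.0868 CPM in luminal ones, which is under the limit of detection, and was called (edgeR adjusted p = 9.49e-05). Fibroblast markers summed to 1777 to 8641 CPM in these basal libraries and to 44.3 to 456 CPM in the luminal ones, and their part in the ligand levels was not tested.

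**Figure D4:**
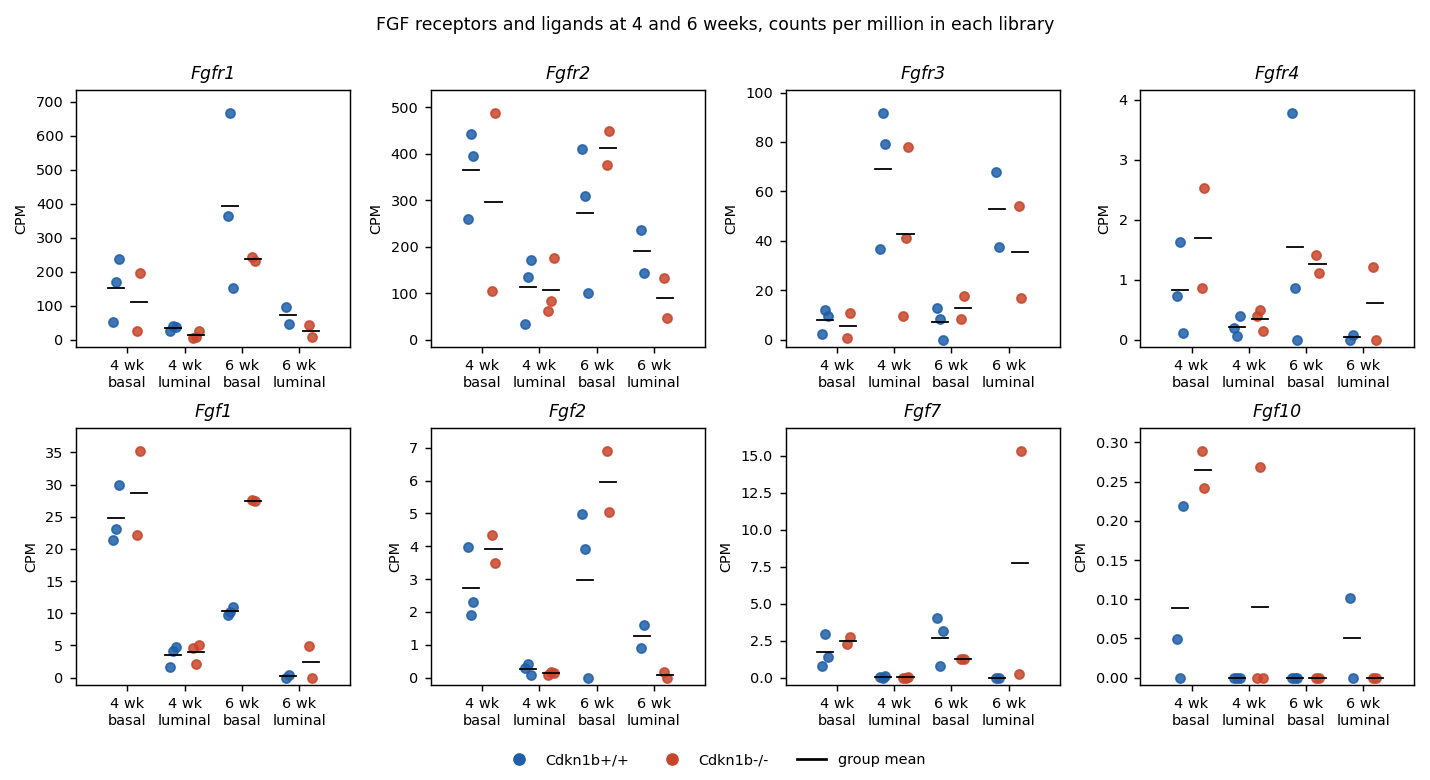
Level (CPM, y axis of each panel, linear from 0) of the 8 members in basal and luminal cells of 4 and 6 weeks; each point is a library, blue Cdkn1b+/+ and red Cdkn1b-/-. Fgf1 separates basal (21.4 to 35.2 CPM) from luminal cells (1.59 to 5.04 CPM) at 4 weeks, and the genotypes overlap for Fgfr1, Fgfr2 and Fgfr3 in both populations of that age.

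The genotypes of 4 weeks gave 0 of 7 members called in basal and 0 of 7 in luminal cells by edgeR, where 0% and 0% of genes were called, with 310 and 435 genes and 0 members at an unadjusted p under 0.05 and 1 and 0 genes by DESeq2. Fgfr2 had 32.6, 135 and 171 CPM in Cdkn1b+/+ and 60.7, 82.2 and 176 CPM in Cdkn1b-/- luminal cells, overlapping ranges with a log2 fold change of 0.06 ± 0.55. The luminal gate of 4 weeks is wider than the LP gate of 9 weeks, and the change of the Fgfr2 genotype difference with age was not tested.

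At 6 weeks, Fgfr1 was the 1 member of 7 called between basal and luminal cells, where 5.65% of genes were called. It had 365, 666 and 153 CPM in Cdkn1b+/+ and 244 and 230.0 CPM in Cdkn1b-/- basal cells, and 96.4 and 45.5 CPM against 43.5 and 7.97 CPM in luminal cells. No basal library overlapped a luminal one, and the basal level was 7.47-fold higher (log2 fold change 2.90 ± 0.57 SE, edgeR adjusted p = 0.0177). The call was lost without Cdkn1b+/+ luminal 1 (0.0571) or luminal 2 (0.0844). With the animal as a block Fgfr2 was called as well (1.63, edgeR adjusted p = 0.0384). The 6-week fit was repeated without Cdkn1b+/+ basal 3 and Cdkn1b-/- luminal 2, which stood apart. The log2 fold changes of basal over luminal cells were then 1.39 for Fgfr2, 4.10 for Fgf1 and -2.08 for Fgfr3. This setting was added after seeing the data and leaves 1 Cdkn1b-/- luminal library, so only log2 fold changes are given.

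Cdkn1b+/+ basal 3 of 6 weeks was at 0 for Fgfr3, Fgfr4 and Fgf2. Cdkn1b-/- luminal 2 of 6 weeks had the highest luminal Fgf7 level of the series, 15.3 CPM, against 0.241 CPM in the other Cdkn1b-/- and 0 in both Cdkn1b+/+ luminal libraries. That library also had the highest summed adipocyte (7132 CPM) and endothelial (1708 CPM) marker levels of the luminal libraries, and 3466 CPM for fibroblast markers, and their part in its Fgf7 was not tested. Fgf1 in basal cells of 6 weeks had 9.79, 10.1 and 11.02 CPM in Cdkn1b+/+ and 27.6 and 27.4 CPM in Cdkn1b-/- libraries, without overlap, with a log2 fold change of 1.29 ± 1.58 (edgeR adjusted p = 0.894), and of 1.32 ± 0.86 (0.431) without both libraries that stood apart. Between genotypes, edgeR called 0 of 7 members and 0% of genes in basal and 0 of 7 and 0% in luminal cells, with 1072 and 1961 genes at an unadjusted p under 0.05 and 303 and 1251 called by DESeq2, and without both of those libraries edgeR again called 0 members in each population.

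Between 4 and 6 weeks in Cdkn1b+/+ rats, 0 of 7 members were called in basal cells (10.5% of genes) and 0 of 7 in luminal cells (3.10% of genes), with 1 member at an unadjusted p under 0.05 in each and 0 and 1 by DESeq2. Over all genes, 3515 and 2597 had an unadjusted p under 0.05, and DESeq2 called 2602 and 1629. Without Cdkn1b+/+ basal 3 of 6 weeks the basal count was also 0. In basal cells that member was Fgfr1, with 50.4 to 236 CPM at 4 weeks and 153 to 666 CPM at 6 weeks (log2 fold change 1.54 ± 0.72, edgeR adjusted p = 0.173). In luminal cells it was Fgf1, with 1.59 to 4.82 CPM at 4 weeks and 0 and 0.380 CPM at 6 weeks (-3.98 ± 1.29, edgeR adjusted p = 0.0922).

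Between E2 and control libraries, the largest log2 fold change of a tested member was that of luminal Fgfr2, which was lower in each of the 3 E2 libraries than in any of the 3 controls of both strains but did not pass edgeR's test. Fgfr2 had 413 and 332 CPM in ACI control, 84.8 CPM in BN control, 6.15 and 17.3 CPM in ACI E2 and 4.23 CPM in BN E2 luminal cells. With strain as a term the log2 fold change was -4.92 ± 0.67, with an unadjusted p of 0.000310 in edgeR and an adjusted p of 0.788, while DESeq2 gave an adjusted p of 1.45e-10. Without 1 library at a time the log2 fold change ranged from -5.42 to -4.50, and it was -4.50 without ACI E2 luminal 1, which had 7906 CPM of fibroblast markers.

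Fgfr3 in luminal cells had 67.6 and 88.3 CPM in ACI control, 64.8 CPM in BN control, 1.54 and 12.4 CPM in ACI E2 and 24.3 CPM in BN E2 libraries. Control and E2 libraries did not overlap, with a log2 fold change of -2.92 ± 1.08 (edgeR adjusted p = 0.999) that was -2.19 without ACI E2 luminal 1. Fgfr1 did not show this pattern, with 80.5, 40.8 and 23.9 CPM in controls and 128, 65.8 and 80.8 CPM in E2 libraries, ranges that overlapped (0.77 ± 0.61). EdgeR called 0 of the 6 members tested and 0% of genes for E2 in luminal cells, with 468 genes and 2 members at an unadjusted p under 0.05 and 89 genes called by DESeq2, Fgfr2 among them. In the ACI luminal libraries the summed CPM of hormone-sensing markers was 624 to 792 in controls and 65.8 to 360 in E2 libraries, whereas in BN they summed to 18.9 CPM in the control and 81.4 CPM in the E2 library, the opposite order. Their part in the Fgfr2 and Fgfr3 levels was not tested.

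**Figure D5:**
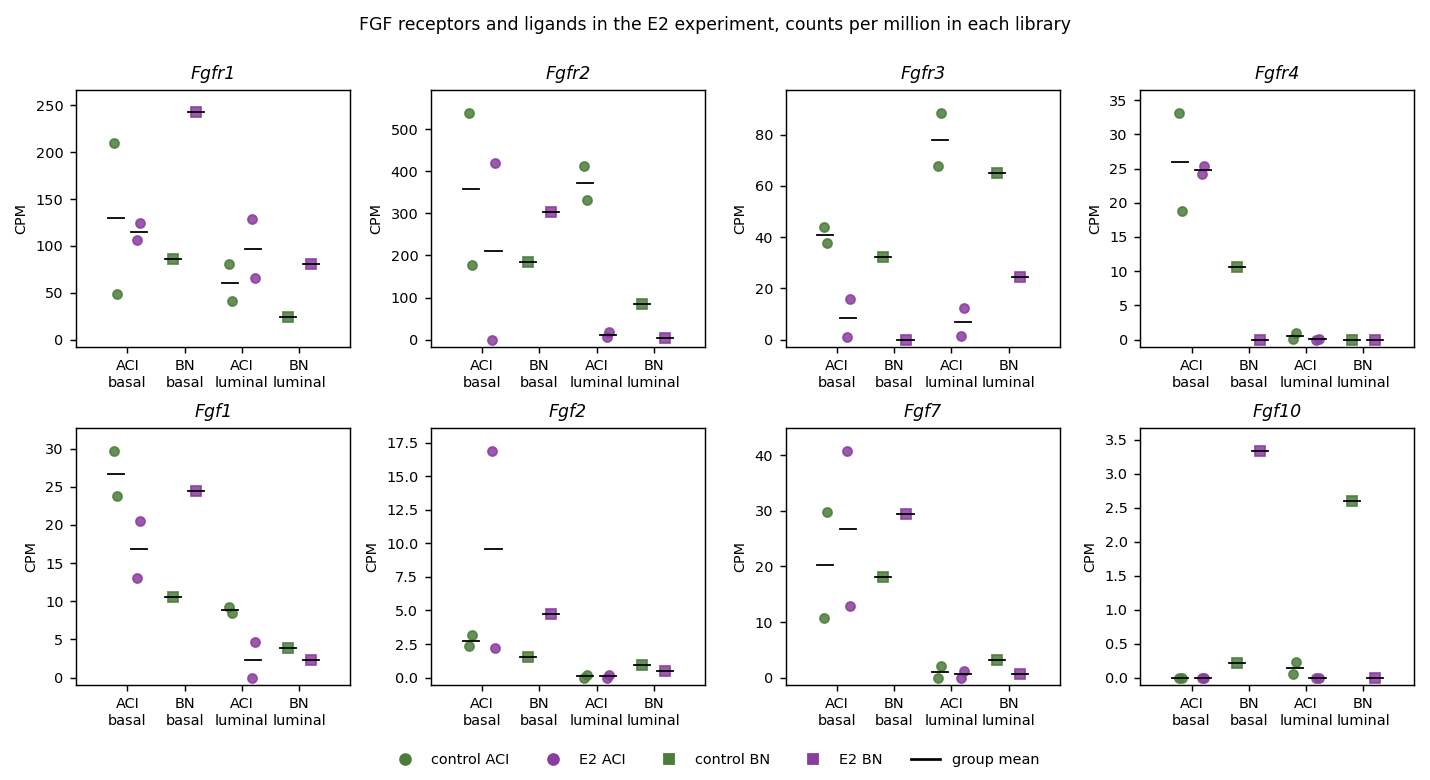
Level (CPM, y axis of each panel, linear from 0) of the 8 members in basal and luminal cells of the E2 experiment; each point is a library, green control and purple E2, circles ACI and squares BN. Luminal Fgfr2 lies at 84.8 to 413 CPM in controls and at 4.23 to 17.3 CPM with E2, and Fgfr4 is seen almost only in basal cells.

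In basal cells no such separation of Fgfr2 was seen. Fgfr2 had 538 and 177 CPM in ACI control, 184 CPM in BN control, 0.0445 and 420 CPM in ACI E2 and 303 CPM in BN E2 basal cells. The log2 fold change of -0.43 ± 1.93 became 0.27 without ACI E2 basal 1, the library that stood apart. Fgfr3 had 44.0, 37.6 and 32.0 CPM in control and 0.979, 15.98 and 0 CPM in E2 basal libraries, without overlap (-3.87 ± 2.32, edgeR adjusted p = 1.00). Its log2 fold change was -3.34 without ACI E2 basal 1 and -2.34 without BN E2 basal 1. The library at 0 was BN E2, which had a summed fibroblast marker level of 21645 CPM and in which Fgfr4 was also at 0. EdgeR called 0 of 7 members and 0% of genes for E2 in basal cells, with 181 genes and 0 members at an unadjusted p under 0.05 and 74 genes by DESeq2.

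Between the strains, edgeR called 0 of 6 members and 0% of genes in luminal and 0 of 7 and 0% in basal cells, with 527 and 89 genes and 0 members at an unadjusted p under 0.05 and 299 and 8 genes by DESeq2. For Fgfr2, ACI over BN had a log2 fold change of 1.34 ± 0.65 in luminal cells (edgeR adjusted p = 0.932), with 1 BN library per treatment.

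Between basal and luminal cells of the E2 experiment, 1 of 7 members was called, where 1.86% of genes were called. This was Fgfr4, with 33.1 and 18.7 CPM in ACI control, 24.3 and 25.4 CPM in ACI E2 and 10.6 CPM in BN control basal libraries, and 0 in BN E2 basal cells. In the luminal libraries it was at most 0.927 CPM and was at 0 in 3 of 6 (log2 fold change of the fit 8.36 ± 1.74, edgeR adjusted p = 0.0349). With the animal as a block the call was lost (edgeR adjusted p = 0.0545), as it was without any one of 9 libraries. The 5 basal levels above 0 exceed those of all other basal libraries of the series, none of which exceeded 4.92 CPM, and the E2 experiment and the Cdkn1b experiment also differ in ways that cannot be told apart from it. Basal Fgf7 was likewise at 10.7 to 40.7 CPM here and at most 4.01 CPM in basal cells of the other experiment. Pericyte markers summed to 492 to 3434 CPM in the 5 basal libraries with Fgfr4 and to 142 CPM in BN E2 basal cells. In basal cells of the other experiment they summed to at most 259 CPM. In BN E2 basal cells Fgf7 was at 29.5 CPM, whereas Fgfr4 was at 0. The part of pericyte markers in Fgfr4 and Fgf7 was not tested. Fgf10, a stromal ligand, reached 10 reads only in BN E2 basal (3.33 CPM) and BN control luminal cells (2.60 CPM).

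Other genes of FGF signalling were taken from a list of 82 ligands, co-receptors and heparan sulfate genes, adaptors, and feedback and target genes, of which 65 were tested at 9 weeks. In LP, 2 of 65 (3.08%) were called between genotypes, 1 in each direction, against 3.4% of all genes. Shc1, an adaptor that links receptor tyrosine kinases to Ras, had 73.7 to 133 CPM in Cdkn1b+/+ and 20.7 to 29.4 CPM in Cdkn1b-/- LP and fell by 1.67 on the log2 scale (± 0.29 SE, edgeR adjusted p = 0.00871). Flrt3, a membrane protein that binds FGF receptors, had 26.1 to 47.0 CPM against 43.7 to 307 CPM, overlapping ranges with a 5.50-fold higher fitted level in Cdkn1b-/- LP (2.46 ± 0.56, edgeR adjusted p = 0.0320). None of the 65 was called in basal or mature luminal cells.

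Between populations of Cdkn1b+/+ rats, 18 of 65 were higher and 4 lower in basal cells than in LP, 33.8% of the list against 30.9% of all genes. Against mature luminal cells 13 were higher in basal cells and 0 lower, 20% of the list against 20.9% of all genes. Fgfrl1, an FGF receptor without a kinase domain, was 29.2-fold higher in basal cells than in LP (log2 fold change 4.87 ± 0.64 SE, edgeR adjusted p = 0.000181). The heparan sulfate 6-O-sulfotransferase Hs6st2 (4.05) and Etv5 (3.48), a transcription factor induced by FGF signalling, were also higher, while Kl (-3.12), a co-receptor for endocrine FGFs, and the signalling proteins Gab2 (-2.27) and Nras (-1.08) were lower in basal cells. Against mature luminal cells the largest differences were those of Fgfrl1 (6.05), the ligand Fgf21 (3.65) and the feedback inhibitor Spry1 (3.47).

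LP exceeded mature luminal cells in 5 of the 65, among them Spry4 (2.40), Flrt2 (2.05) and Pik3ca (1.15), and had less of 1, the FGF carrier Fgfbp1 (-2.97), in all 9.23% of the list against 11% of all genes. In Cdkn1b-/- rats 22 were higher and 6 lower in basal cells than in LP (43.1% against 36.3% of all genes), and 17 higher and 1 lower than in mature luminal cells (27.7% against 23.7%). Fgfrl1 (5.03), Fgf21 (4.51) and Etv5 (2.87) led the first comparison upward and Kl (-4.30), Flrt3 (-2.38) and Nras (-1.34) downward. Against mature luminal cells these were Fgfrl1 (5.89), Fgf21 (3.72) and Spry1 (3.05), with Fgfbp3 (-1.03) lower.

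At 4 weeks 22 of 65 were higher and 2 lower in basal than in luminal cells (36.9% against 35.1% of all genes). Fgf5 had 2.103 to 10.4 CPM in basal libraries and was at 0 in every luminal one, Fgfrl1 (5.55) and Hs6st2 (5.51) were higher, and Gab2 (-1.74) and the phosphatase gene Dusp4 (-1.02) were lower. At 6 weeks 6 of 63 were higher and 0 lower (9.52% against 5.65%), led by Hs6st2 (5.81), the glypican Gpc1 (3.37) and Dusp6 (3.11), a feedback phosphatase. From 4 to 6 weeks, Cdkn1b+/+ basal cells had lower levels of the immediate early gene Fos (-3.45), Etv5 (-2.35) and Sulf2 (-2.16) and a higher level of Fgf21 (2.85), with 4 called in each direction (12.3% of the list against 10.5% of all genes). Luminal cells had lower levels of Egr1 (-3.39) and Fos (-2.65), the 2 called (3.08% against 3.10%). These shares describe the list and carry no test. In the E2 and strain comparisons and in the basal-luminal comparison of the E2 experiment, 0 of these genes were called by edgeR.

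Across the 48 libraries, the genes whose levels followed Fgfr1 most closely were Lrrc8d (Pearson's r = 0.856), Frmd6 (0.834), Crim1 (0.823), Itga6 (0.821) and Axl (0.808), of 10970 genes. For Fgfr2 these were Rilpl1 (0.849), Ctnnal1 (0.847), Slc7a6 (0.830), Gopc (0.820) and Klf7 (0.809). The libraries share animals and populations, so these values describe the libraries and carry no test.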

How the data were processed

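RNA of sorted mammary cells was sequenced from low-input SMARTer libraries as single-end reads. According to the study's methods, the authors aligned reads to rn6 with STAR 2.5.1b and deposited HTSeq read counts per gene, without normalization. Between 47.1% and 77.0% of the reads HTSeq tallied were not assigned to a gene and were left out of library sizes. The deposited progesterone receptor peaks are in rn6, could not be placed at genes with the annotation used here and were not used.

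Analyses used edgeR 4.0.16, DESeq2 1.42.0 and limma 3.58.1 under R 4.3.3, with Python 3.11.15 for summaries. Genes were kept by edgeR's filterByExpr (by group, and by the design in the fits of E2 and strain), normalized by TMM and tested with the quasi-likelihood test over all genes kept, adjusted by Benjamini-Hochberg, and called at an adjusted p under 0.05. Log2 fold changes and folds come from these fits, and SE is the log2 fold change divided by the square root of F. CPM use the total of gene counts, not TMM. One fit held the 16 libraries of 9 weeks, with PNA+ and Cd49b+ libraries as LP. The 4-week, 6-week and E2 libraries were fitted apart. All tests were two-sided. The edgeR test was run on simulated counts for the first comparison of each fit only. The other comparisons, DESeq2 and the blocked fits were not run on simulated counts.

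Pairs of libraries of 1 group were checked for duplicates: chi-square per gene was 45.2 to 811 over 28 pairs, and none was a duplicate. Nothing in the labels says that libraries of 9 weeks came from separate animals, so p-values measure the spread between these libraries, which may be technical. At 4 and 6 weeks and in the E2 experiment, titles carry animal codes that pair basal with luminal libraries, and residuals of these pairs had correlations of 0.134 to 0.686, 0.0056 to 0.0627 and 0.109 to 0.204. At 9 weeks, libraries of 1 genotype with the same number had correlations of 0.326 to 0.877 over 24 comparisons, and those of different genotypes had -0.356 to -0.110. Each 9-week group held 2 libraries, whose residuals mirror each other, so numbers 1 and 2 gave the same values and the comparisons are not independent. The labels do not say what a shared number stands for. 

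The members and lists were chosen with earlier results of these data known. Named genes are the 8 members, up to 3 other FGF signalling genes per direction and comparison with the largest change among those called, and the 5 genes most correlated with Fgfr1 and Fgfr2 on log2 CPM (prior count 2), among genes with at least 10 counts in 24 libraries. Single genes that this rule names in 1 comparison are not reported here. Promoter windows come from RefSeq (GRCr8) and matched 7 of 8 members. Alternatives were RLE normalization, no filter, at least 10 counts in every library, DESeq2, an absolute log2 fold change above 1, blocks, summed LP libraries, the compared libraries alone and leaving out each library. Crossed numbers and leaving out libraries that stood apart were added after seeing the data.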

Additional observations from a re-analysis of the deposited data

Results flagged for a closer look

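In Cdkn1b-/- LP of 9 weeks, 1 library of 4 lay far from the others for 2 members. Cd49b+ LP 2 had 121 CPM of Fgfr1, where the group ranged from 70.1 to 121 CPM and the gap to the next library was 0.840 of the range, and 59.8 CPM of Fgfr2, where the group ranged from 19.7 to 59.8 CPM and the gap was 0.899 of the range. These gaps pass Dixon's critical value at 95% for 4 libraries, which chance alone passes in about 1 in 20 groups, and 14 groups were examined. The same library had a summed basal marker level of 2835 CPM, against 265 to 476 CPM in the other 3.

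Fgf1 in Cdkn1b-/- basal cells lay on opposite sides of the Cdkn1b+/+ libraries at 2 ages. All Cdkn1b-/- libraries exceeded all Cdkn1b+/+ libraries at 6 weeks (log2 ratio of means 1.41) and all lay below them at 9 weeks (-0.48), a difference between the ages of -1.90 that was not tested. Neither fit passed the test, with log2 fold changes of 1.29 ± 1.58 at 6 weeks and -0.22 ± 0.52 at 9 weeks (edgeR adjusted p = 0.894 and 0.943).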

How the results depend on the processing

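Of the counts of members called, 340 stayed within 1.5 times the reported count under the alternatives and 48 did not. Of the log2 fold changes, 527 kept their direction and their side of the threshold, 43 lost and 5 gained a call and 7 changed sign. Fgfr2 between genotypes in LP kept its direction under each alternative (-2.41 to -1.90 without 1 library) and lost its call only when PNA+ and Cd49b+ libraries were summed (0 members called). Between LP and mature luminal Cdkn1b+/+ cells, 0 members were called with RLE, with at least 10 counts, with summed libraries and without each library (0 to 0), and 2 with no filter, with DESeq2, with the compared libraries alone and with the replicate block. With at least 10 counts in every library, which removes sparse members, 3 were called between basal and LP and 3 between basal and mature luminal Cdkn1b-/- cells, and 0 between basal and luminal cells of the E2 experiment. With the compared libraries alone, 3 were called between basal and mature luminal Cdkn1b-/- cells. DESeq2 called 1 member between genotypes in mature luminal, PNA+ and Cd49b+ cells and in luminal cells of 6 weeks. It called 1 between ages in luminal cells and 1 for E2 in luminal cells. Between basal and luminal cells it called 3 at 6 weeks and 4 in the E2 experiment, where it called 1916 and 1693 genes. Leaving out 1 library was run with edgeR only, and gave 0 to 1 members between basal and luminal cells of the E2 experiment. Without a filter 1 was called between genotypes in PNA+ cells. At 6 weeks, the count of members called between basal and luminal cells moved when 1 library was left out, which leaves 1 library in some groups. The cause of these shifts was not tested.

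With the animal as a block, 2 members were called between basal and luminal cells of 6 weeks and 0 in the E2 experiment; with a random replicate block, 3 at 6 weeks and 1 between ages in luminal cells. Apart from these and the comparison of LP with mature luminal cells given above, the blocked fits moved no count of members by over 1.5 times. Across genotypes the number marks no shared animal, and with numbers crossed the members called stayed at 1 in LP and 0 in basal and mature luminal cells.

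Without 1 library, the log2 fold change of Fgfr2 changed sign in the difference between LP and mature luminal cells (-0.86 to 0.46), between genotypes of 4 weeks in luminal (-0.36 to 0.47) and basal cells (-1.40 to 0.34), and for E2 in basal cells (-5.65 to 0.33). Depth limits Fgfr4, Fgf2, Fgf7 and Fgf10, and 1 to 4 libraries per group limit the rest. Other windows and thresholds for the progesterone receptor peaks were not run.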
